A study of Rattus norvegicus with 9 samples.

Results

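The immediate early genes examined here were the rat genes Fos, Jun, Junb, Egr1, Egr2, Nr4a1, Dusp1 and Arc. They were chosen by Ensembl identifier, not by value: ENSRNOG00000008015 for Fos, ENSRNOG00000026293 for Jun, ENSRNOG00000042838 for Junb, ENSRNOG00000019422 for Egr1, ENSRNOG00000000640 for Egr2, ENSRNOG00000007607 for Nr4a1, ENSRNOG00000003977 for Dusp1 and ENSRNOG00000043465 for Arc. The 8 genes were listed in every library and make up 8 of its 23426 features. Their symbols came with the identifiers: 0 of the identifiers in the files matched the RefSeq gene table, so the pairing of symbol and identifier was not checked against a table. Expression was measured by RNA sequencing in PC12 cells, a rat pheochromocytoma line of chromaffin origin that was used in a differentiated state as a model of neurons. Control cells had no oxygen-glucose deprivation/reperfusion (OGD/R). In the OGD/R group, cells spent 4 h at 1% oxygen in glucose-free medium and were then returned to normal culture medium and oxygen for 6 h. In the mimic group, mimics of miR-483-5p were transfected into the cells, and the same OGD/R treatment began 48 h later. Each of the 3 groups had 3 libraries, and nothing in the labels says whether these came from separate cultures, so p-values measure the spread between these libraries, which may be technical. Among the sequenced groups, transfection is stated only for the mimic group. The methods list a negative control mimic but do not tie it to these libraries, so the mimic and the transfection itself cannot be told apart. The labels also do not say whether control cells had a change of medium at the time of reoxygenation, so deprivation, reoxygenation and fresh serum-containing medium cannot be told apart. The markers of PC12 cells and of other cell types could not be looked up, because the files carry no symbols.

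Immediate early genes are switched on from preformed transcription factors, without new protein synthesis, when a cell meets a growth factor, depolarization or stress. MAP kinases and calcium signals reach serum response factor and CREB at their promoters, and most of the transcripts are short-lived. Many of the products are transcription factors: FOS and JUN family proteins pair to form AP-1, EGR proteins bind GC-rich sites through zinc fingers, and NR4A1 is an orphan nuclear receptor. DUSP1 is a nuclear phosphatase that removes phosphate from JNK, p38 and ERK and so limits the signal, and ARC acts at synapses on glutamate receptor traffic.

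The promoter windows below are shown because the elements through which these genes are known to be induced can be read in them. RefSeq promoters (build GRCr8) were found for 5 of the 8 genes, Junb, Egr1, Egr2, Nr4a1 and Dusp1. Each of the 4 windows printed covers the 150 bases before the annotated start, and Junb is not printed because none of the marked elements lies within that window. The sequences read 5′ to 3′ on the strand of the gene. Capitals mark the CArG box, the core that serum response factor binds, and the CREB site TGACGTCA or its core TGACG on either strand. Egr1 lies at chr18:26736928-26737077 (plus strand), Egr2 at chr20:21054442-21054591 (minus strand), Nr4a1 at chr7:134259988-134260137 (plus strand) and Dusp1 at chr10:17184703-17184852 (plus strand).
Egr1: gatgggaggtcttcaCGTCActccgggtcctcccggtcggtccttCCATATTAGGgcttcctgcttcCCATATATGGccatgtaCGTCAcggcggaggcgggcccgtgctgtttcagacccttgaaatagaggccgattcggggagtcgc
Egr2: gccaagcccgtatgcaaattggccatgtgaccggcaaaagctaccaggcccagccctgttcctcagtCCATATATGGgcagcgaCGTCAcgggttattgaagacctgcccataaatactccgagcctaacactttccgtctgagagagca
Nr4a1: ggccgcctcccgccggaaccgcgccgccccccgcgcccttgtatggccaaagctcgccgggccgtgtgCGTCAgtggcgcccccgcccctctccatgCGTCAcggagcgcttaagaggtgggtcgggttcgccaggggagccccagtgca
Dusp1: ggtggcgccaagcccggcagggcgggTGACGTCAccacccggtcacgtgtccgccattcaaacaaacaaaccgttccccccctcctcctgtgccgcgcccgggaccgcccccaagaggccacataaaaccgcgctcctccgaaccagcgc

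Over the 250 bases before the start, a CArG box was found in the Egr1 and Egr2 promoters, 2 of the 5, and in 1.5% of all 33469 promoters of the same length. The box CCATATATGG lay 83 to 74 bases before the start in both Egr1 and Egr2, and in both a TGACG core followed at 66 to 62 bases. The full site TGACGTCA was found in Dusp1 alone among the 5, 124 to 117 bases before the start, and in 1.59% of all promoters. The core TGACG, which also lies within the full site, was in all 5 promoters searched and in 18.2% of all promoters. The AP-1 site TGACTCA was in 0 of the 5 (4.05% of all promoters), the EGR site GCGGGGGCG in Nr4a1 (2.45%) and TATAAA in Junb (12.9%). Both strands were searched for each motif, and a match describes these letters only. The mimic was of miR-483-5p. The mature rat sequence in RefSeq, with its seed at bases 2 to 8 in capitals, is given here to identify the agent; it lies on chromosome 1 at chr1:207247903-207247924 (GRCr8, minus strand).
rno-miR-483-5p: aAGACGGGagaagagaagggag

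The deposited values are FPKM, fragment counts scaled by gene length and library size, so read counts and total depth are unknown. The number of features above 0 was 15792 to 16017 per control library, 16506 to 17149 per OGD/R library and 16820 to 17242 per mimic library. In bulk samples such as these, fewer cells expressing a gene and less of its RNA per cell cannot be told apart. All 8 genes were above 0 in all 9 libraries. OGD/R replicate 3 was nearer to mimic replicates 1 and 2 than to its own group. Mimic replicate 3 was about as near to OGD/R replicates 1 and 2 as to its own group. Pearson correlations were taken across the 11798 features that averaged 1 FPKM or more, called expressed features here. For OGD/R replicate 3 they were 0.984 with both mimic replicates 1 and 2, but 0.978 and 0.968 with the other OGD/R libraries. For mimic replicate 3 they were 0.985 and 0.982 with OGD/R replicates 1 and 2, against 0.982 and 0.981 with the other mimic libraries. With each other the 2 libraries correlated at 0.975. The files do not show whether these 2 libraries carry the right labels. The groups are used as labelled, and an exchange of the 2 labels would change the values of all 3 comparisons. Genes are not independent replicates, so these values describe the libraries only. Several of the values below are also given without these 2 libraries.

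The question of the OGD/R comparison is which genes change after deprivation and reoxygenation. After OGD/R, 6 of the 8 genes were higher than in control at an adjusted p under 0.05 and 0 were lower. Without OGD/R replicate 3 and mimic replicate 3, Fos was added and 7 were higher. In that fit 45.9% of 19056 features were called, and 35.5% of those were higher. The 2 libraries were picked after seeing the data and leaving both out narrows the spread, so that count is a description. Without OGD/R replicate 3 alone, Fos was not called (adjusted p = 0.144 from limma). Dusp1 had the largest difference, followed among the genes called by Egr2, Junb, Egr1, Nr4a1 and Jun, while Fos and Arc had higher means but did not pass the test with all libraries. Among all 19394 features tested, 16.1% were called higher in this comparison. For 7 of the 8 genes every OGD/R library lay above every control, where the share over all features was 19.4%. A log2 fold change of 1 or more together with an unadjusted p under 0.05, the study's own type of criterion, was reached by 4 of the 8 genes (Fos, Junb, Egr2 and Dusp1) and by 7.63% of all features. The median log2 fold change of the 8 genes was 1.10, against -0.06 over all features and -0.23 over expressed features. Fold changes are differences of log2(FPKM + 0.1) from limma, a scale that understates the change of low genes. Adjusted p-values are Benjamini-Hochberg values over all features tested.

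**Figure D1:**
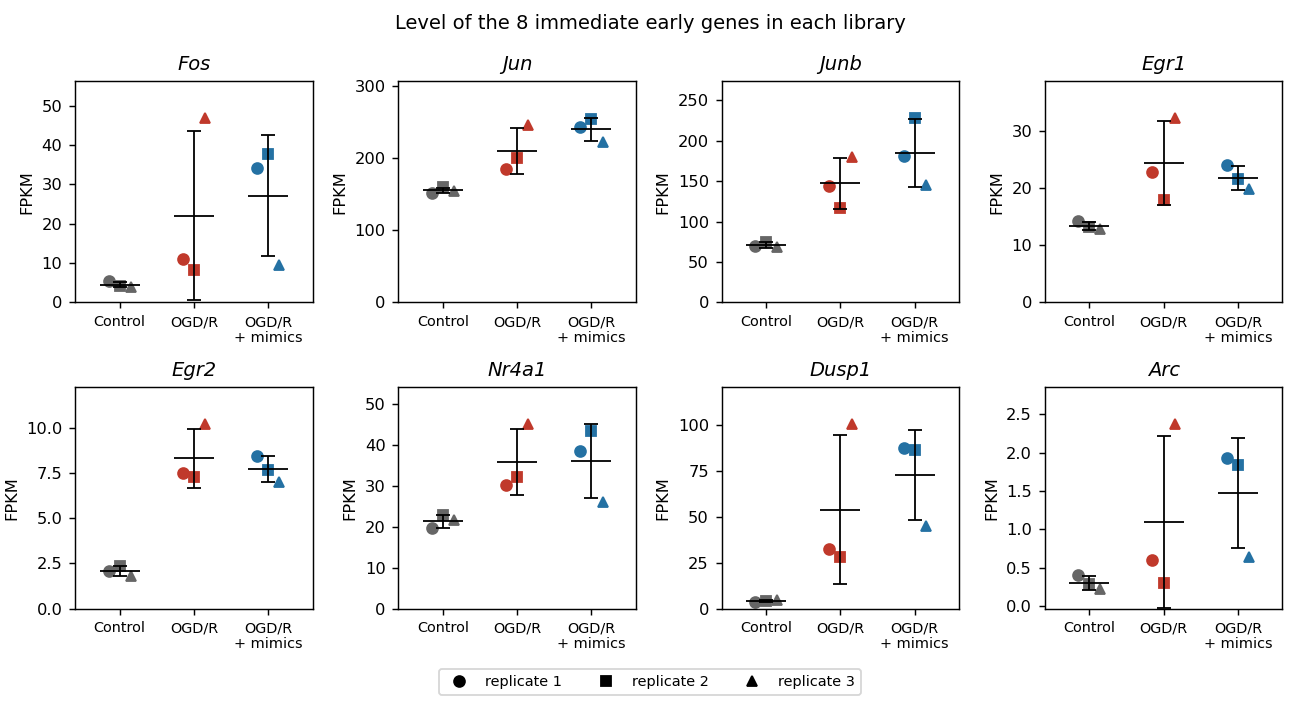
FPKM (vertical axis, linear) of each of the 8 genes in control, OGD/R and OGD/R + mimics libraries; points are single libraries with a marker for the replicate number, and the horizontal mark and bar are the group mean and SD (n = 3). Control libraries lie close together, while OGD/R replicate 3 is the highest OGD/R library and mimic replicate 3 the lowest mimic library for all 8 genes.

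Among the AP-1 genes, Fos encodes the partner of JUN proteins that is nearly absent from resting cells. Fos stood at 5.35, 4.28 and 4.03 FPKM in control replicates 1 to 3, at 11.01, 8.37 and 46.9 FPKM in OGD/R libraries, and at 34.3, 37.62 and 9.6 FPKM in mimic libraries. All 6 libraries with OGD/R lay above the highest control, but OGD/R replicate 3 and mimic replicates 1 and 2 were far above the other 3. Its mean was 22.1 ± 21.5 FPKM (SD, n = 3) after OGD/R against 4.55 ± 0.70 FPKM in control. The log2 fold change was 1.83 (standard error 0.68, 95% confidence interval 0.29 to 3.37), with an adjusted p of 0.0542 from limma. This value sat at the edge of the threshold, and Fos passed it in 9 of 19 alternative analyses, among them a pseudocount of 0.01 (adjusted p = 0.0469), filters at a mean of 0.1 FPKM (0.0359) and 1 FPKM (0.0315), the fit of the 2 groups alone (0.0444) and the fit without mimic replicate 3 (0.0313). Without OGD/R replicate 3 the log2 fold change was 1.07 with an adjusted p of 0.144, and without OGD/R replicate 2 it was 2.31 with an adjusted p of 0.0303. With OGD/R replicate 3 and mimic replicate 3 both left out, it was 1.07 with an adjusted p of 0.00237, the standard error having gone from 0.68 to 0.16.

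Jun encodes the AP-1 subunit that is phosphorylated by JNK. Its levels were 152.12, 159.59 and 155.11 FPKM in control, 185.12, 200.56 and 246.38 FPKM in OGD/R libraries, and 242.78, 254.51 and 223.08 FPKM in mimic libraries. The control libraries spanned a narrow range below all others. Jun rose after OGD/R by 0.43 on the log2 scale (standard error 0.10, adjusted p = 0.0071 from limma), the smallest of the 8 differences.

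Junb encodes an AP-1 subunit that can restrain JUN. It stood at 69.35, 74.66 and 68.56 FPKM in control, 144.34, 116.96 and 180.17 FPKM in OGD/R libraries, and 180.94, 228.02 and 145.19 FPKM in mimic libraries. No OGD/R or mimic library reached down to the control range. The rise after OGD/R was 1.03 on the log2 scale (standard error 0.18, adjusted p = 0.00156 from limma), from 70.9 ± 3.3 to 147 ± 32 FPKM (SD, n = 3).

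The zinc finger genes Egr1 and Egr2, whose promoters share the element described above, both rose. Egr1 had 14.21, 13.14 and 12.78 FPKM in control, 22.86, 17.84 and 32.21 FPKM in OGD/R libraries, and 24.02, 21.49 and 19.86 FPKM in mimic libraries. Its mean went from 13.4 ± 0.7 to 24.3 ± 7.3 FPKM (SD, n = 3) after OGD/R, a log2 fold change of 0.82 (standard error 0.18, adjusted p = 0.00596 from limma). Egr2, known for its role in myelination and hindbrain patterning, was low in control, at 2.08, 2.37 and 1.82 FPKM. It reached 7.49, 7.25 and 10.19 FPKM in OGD/R libraries and 8.41, 7.68 and 6.99 FPKM in mimic libraries. The 6 libraries with OGD/R lay in a narrow band clear of the controls. Egr2 rose by 1.93 on the log2 scale (standard error 0.16, adjusted p = 3.06e-05 from limma), and its adjusted p was the lowest of the 8 genes. The ratio of Egr2 to Egr1 within a library, which does not depend on scaling between libraries, was 0.156 ± 0.021 in control, 0.350 ± 0.049 after OGD/R and 0.353 ± 0.004 with mimics (SD, n = 3), and no library of the latter groups fell into the control range.

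Nr4a1 encodes the nuclear receptor also called NUR77. It had 19.55, 22.73 and 21.72 FPKM in control, 30.26, 32.06 and 45.01 FPKM in OGD/R libraries, and 38.44, 43.43 and 26.09 FPKM in mimic libraries. Mimic replicate 3 was the nearest to the controls without entering their range. Nr4a1 rose after OGD/R by 0.72 on the log2 scale (standard error 0.20, adjusted p = 0.0165 from limma). Its call was lost without control replicate 1, with a log2 fold change of 0.66 and an adjusted p of 0.0561.

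Dusp1, the MAP kinase phosphatase, showed the largest change. It was at 3.68, 4.33 and 4.6 FPKM in control, 32.69, 28.2 and 100.41 FPKM in OGD/R libraries, and 87.55, 86.05 and 44.75 FPKM in mimic libraries. Even the lowest library with OGD/R was far above the highest control. From 4.20 ± 0.47 FPKM in control the mean reached 53.8 ± 40.5 FPKM after OGD/R (SD, n = 3), a log2 fold change of 3.40 (standard error 0.45, adjusted p = 0.000327 from limma). Only 39 of the other expressed features had a larger log2 fold change, Dusp1 being at rank 40 of 11798. Without OGD/R replicate 3 its log2 fold change was 2.83.

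Arc, the synaptic effector, was the lowest of the 8 genes. It had 0.4, 0.28 and 0.22 FPKM in control, 0.6, 0.3 and 2.38 FPKM in OGD/R libraries, and 1.93, 1.84 and 0.64 FPKM in mimic libraries. OGD/R replicate 2 lay within the control range, and OGD/R replicate 3 with mimic replicates 1 and 2 stood above the other 6 libraries. The log2 fold change after OGD/R was 1.17 (standard error 0.66, 95% confidence interval -0.32 to 2.66, adjusted p = 0.185 from limma), and without OGD/R replicate 3 it was 0.43. The OGD/R libraries spread from 0.3 to 2.38 FPKM, and a difference between control and OGD/R was not detected for Arc.

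**Figure D2:**
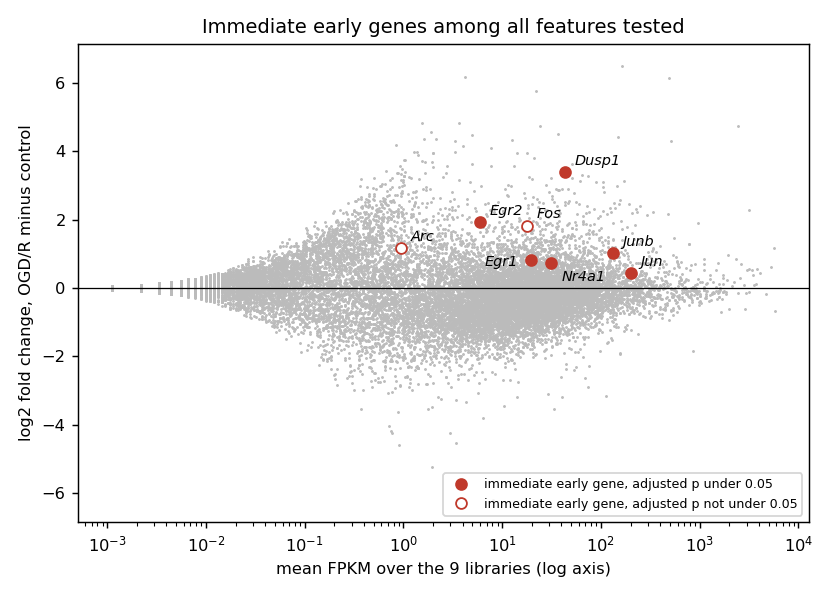
Log2 fold change of OGD/R minus control (vertical axis) against the mean FPKM over the 9 libraries (horizontal log axis); grey points are the other features tested and red points the 8 immediate early genes, filled at an adjusted p under 0.05. Dusp1 has the largest change of the 8 at 3.40, and Arc and Fos are drawn open.

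Scaling between libraries moved these differences but turned none of the 8. The median over expressed features was -0.23 as deposited, and relative to it the log2 fold changes ran from 0.66 for Jun to 3.64 for Dusp1. Fos passed the threshold after quantile normalization, at 2.14 with an adjusted p of 0.0333, and after upper-quartile scaling, at 2.07 with an adjusted p of 0.0423. Of all features called, 35.1% were higher after OGD/R on the deposited scale, 45.2% with quantiles made equal and 53.4% with upper-quartile scaling, and for mimics against control the shares were 37.5%, 44.7% and 58.4%. More features were above 0 in every OGD/R library than in every control, and its part in these differences was not tested.

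The comparison of mimics with control shares its control libraries with the comparison above. All 8 genes were higher with mimics at an adjusted p under 0.05 in limma, where 18.6% of all features were called higher. Every mimic library lay above every control for all 8, against 22.5% of all features. That fold change of 1 or more, with the same unadjusted p, was reached by 5 of the 8 genes and by 9.63% of all features. The log2 fold changes with mimics, beside those after OGD/R without mimics, were 4.02 and 3.40 for Dusp1, 2.33 and 1.83 for Fos, 1.86 and 1.17 for Arc, 1.83 and 1.93 for Egr2, 1.36 and 1.03 for Junb, 0.72 and 0.72 for Nr4a1, 0.70 and 0.82 for Egr1, and 0.62 and 0.43 for Jun. Without mimic replicate 3 those of mimics against control were 2.96 for Fos, 4.34 for Dusp1 and 2.34 for Arc. The calls of Fos (adjusted p = 0.0185), Nr4a1 (0.0153) and Arc (0.0416), all from limma, were the least secure. Fos lost its call without control replicate 2 or 3 or without mimic replicate 1 or 2, with adjusted p-values of 0.0513 to 0.0691. Nr4a1 lost it without control replicate 1 or mimic replicate 1 or 2 (0.0524 to 0.0576), and Arc without any single control library, OGD/R replicate 1, or mimic replicate 1 or 2 (0.0587 to 0.128). Arc was also not called with a pseudocount of 1 (adjusted p = 0.074), after quantile normalization (0.0686), without the mean-variance trend (0.0525) or with the replicate block (0.0781). Dusp1, Egr2, Junb, Jun and Egr1 kept their calls without each of the 9 libraries.

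The comparison of mimics with OGD/R asks what the miRNA mimic changed in cells under the same insult. In limma, 0 of the 8 genes and 0 of all 19394 features (0%) passed at an adjusted p under 0.05, and with a pseudocount of 0.01 the counts were 0 and 9. Without adjustment, a p under 0.05 was found for 0 of the 8 genes and for 6.87% of all features, and the libraries of the 2 groups overlapped for all 8 genes, where mimics lay above OGD/R without overlap for 4.12% of all features. Mean levels with mimics and after OGD/R were 27.2 ± 15.3 and 22.1 ± 21.5 FPKM for Fos, 72.8 ± 24.3 and 53.8 ± 40.5 FPKM for Dusp1, and 1.47 ± 0.72 and 1.09 ± 1.12 FPKM for Arc (SD, n = 3). The OGD/R means rested on OGD/R replicate 3, without which they were 9.69 FPKM for Fos, 30.45 FPKM for Dusp1 and 0.45 FPKM for Arc. The differences on the log2 scale were 0.50 for Fos (95% confidence interval -1.04 to 2.05), 0.62 for Dusp1 (-0.41 to 1.65) and 0.69 for Arc (-0.80 to 2.18). These intervals include large differences in either direction for Fos, so the data do not show that Fos, Dusp1 or Arc were alike in the 2 groups. The intervals were narrower for Jun, at 0.20 (-0.03 to 0.42), Junb, at 0.33 (-0.09 to 0.74), Egr1, at -0.12 (-0.54 to 0.30), Egr2, at -0.10 (-0.47 to 0.28), and Nr4a1, at -0.001 (-0.46 to 0.46). The lowest adjusted p of the 8 was 0.779, for Jun.

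**Figure D3:**
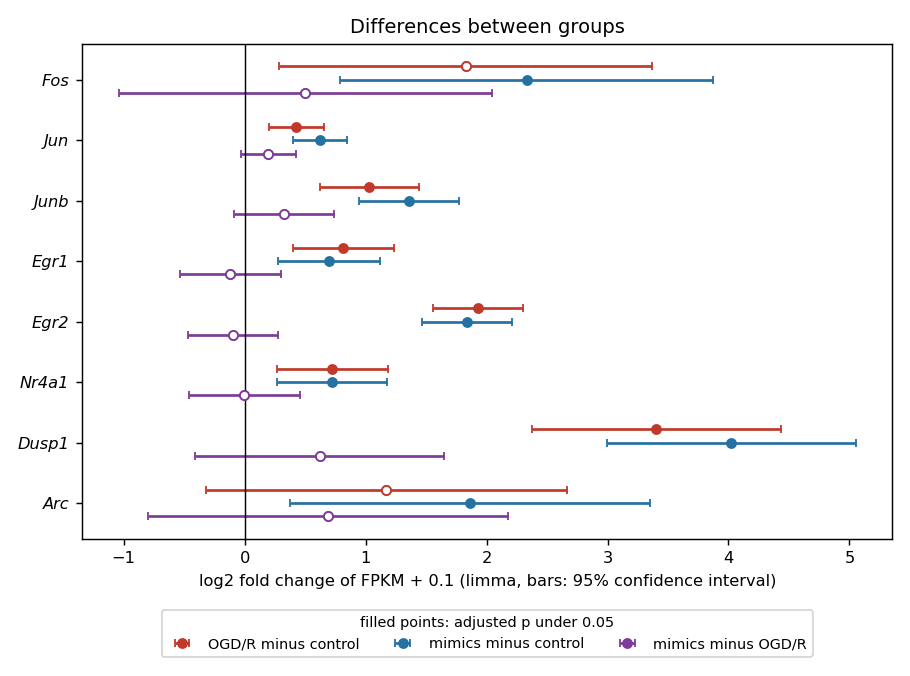
Log2 fold changes (horizontal axis, FPKM + 0.1, limma) of the 8 genes with 95% confidence intervals for OGD/R minus control, mimics minus control and mimics minus OGD/R; filled points have an adjusted p under 0.05. All 8 filled points of mimics minus control lie above 0, and every interval of mimics minus OGD/R includes 0.

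The width of these intervals came from the spread among libraries of the same group. OGD/R replicate 3 was the highest OGD/R library for all 8 genes, and mimic replicate 3 was the lowest mimic library for all 8. Over expressed features, these 2 orders were found together in 18.7%. The 8 genes were picked with this resemblance of the libraries known, so the count is a description. The excess of OGD/R replicate 3 over the mean of OGD/R replicates 1 and 2 was 5.29-fold for Arc, 4.84-fold for Fos and 3.30-fold for Dusp1, and it was 1.28- to 1.58-fold for the other 5 genes. Mimic replicates 1 and 2 averaged 3.75 times mimic replicate 3 for Fos, 2.95 times for Arc and 1.94 times for Dusp1, and 1.11 to 1.57 times for the other 5. Fos, Arc and Dusp1 thus varied most of the 8 between libraries within the OGD/R and mimic groups. Their standard deviation within the OGD/R and mimic groups, on the log2 scale, was 1.22, 1.12 and 0.81, above that of 99.3%, 99.2% and 98.4% of expressed features. Egr2 differed among these 6 libraries by far less, with a standard deviation of 0.21 (65.4% of features were lower). In the controls the standard deviation was 0.32 for Arc and 0.03 to 0.21 for the other 7 genes.

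**Figure D4:**
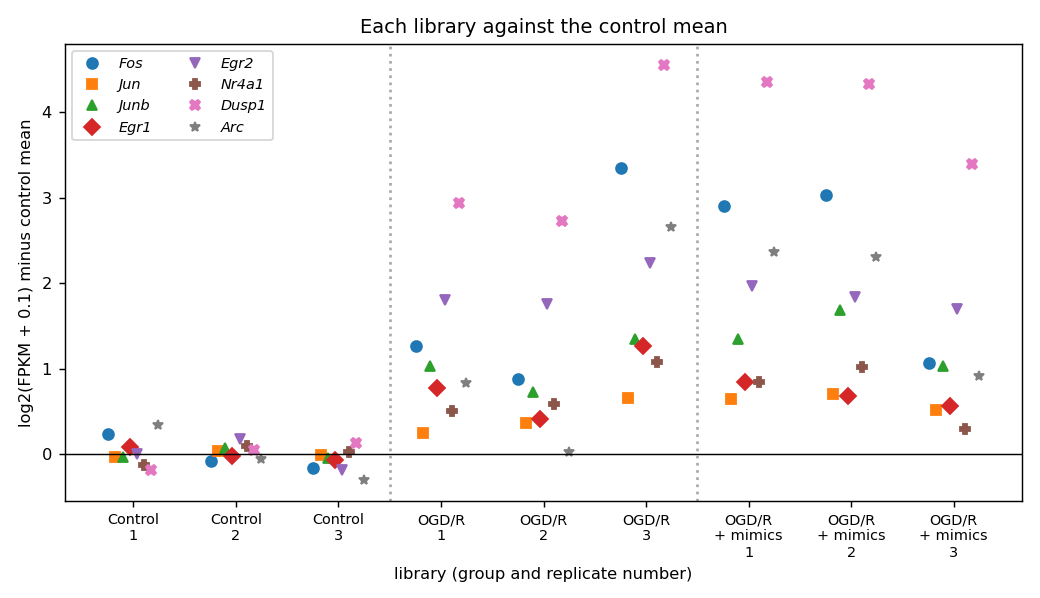
Each library's log2(FPKM + 0.1) minus the control mean (vertical axis) for the 8 genes, by library (horizontal axis); replicates have no order. Fos, Dusp1 and Arc are highest in OGD/R replicate 3 and mimic replicates 1 and 2, while Egr2 lies between 1.70 and 2.24 in all 6 libraries with OGD/R.

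With OGD/R replicate 3 and mimic replicate 3 left out together, 4 of the 8 genes were higher with mimics than after OGD/R at an adjusted p under 0.05 in limma, against 2.15% of all 19056 features then tested. The log2 fold changes were 1.91 for Arc (adjusted p = 0.0443), 1.89 for Fos (0.019), 1.51 for Dusp1 (0.0189) and 0.37 for Jun (0.0357). These libraries were chosen after seeing the data, and they were the highest OGD/R and the lowest mimic library for all 8 genes. Leaving them out therefore widens the difference by construction, and the values show how much rests on 2 libraries. With only OGD/R replicate 3 left out, the log2 fold changes were 1.26 for Fos, 1.19 for Dusp1 and 1.43 for Arc, and with only mimic replicate 3 left out they were 1.13, 0.94 and 1.16. In both cases 0 of the 8 genes passed. Of all features, 3 of 19205 passed without OGD/R replicate 3 and 8 of 19275 without mimic replicate 3.

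Because FPKM is scaled by gene length, levels can be compared between genes. In control the order of mean levels was Jun, Junb, Nr4a1, Egr1, Fos, Dusp1, Egr2 and Arc, from 156 to 0.30 FPKM. Neighbours in this order did not overlap in any control library, except that Fos and Dusp1 did. After OGD/R the order was Jun, Junb, Dusp1, Nr4a1, Egr1, Fos, Egr2 and Arc. Dusp1 was in place 6 in control and in place 3 after OGD/R, above 43.6% and 88.8% of features with a mean above 0. Place 3 rested on OGD/R replicate 3, since over OGD/R replicates 1 and 2 Dusp1 came in place 4, at a mean of 30.45 FPKM, behind Nr4a1 at 31.16 FPKM. The ranges of Dusp1 and Nr4a1, Nr4a1 and Egr1, Egr1 and Fos, and Fos and Egr2 overlapped after OGD/R. Within every OGD/R library, however, Nr4a1 was above Egr1 and Fos was above Egr2. The order of Dusp1 and Nr4a1, and that of Egr1 and Fos, differed between OGD/R libraries. With mimics the order was the same but for Fos and Egr1, which changed places and overlapped, and it was the same without mimic replicate 3. The ranges of Jun and Junb also overlapped among the mimic libraries, as did those of Nr4a1 and Fos. Within every mimic library, however, Jun was above Junb and Nr4a1 was above Fos.

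The makeup of the AP-1 transcripts is given for Fos, Jun and Junb alone, as shares that were not tested. Other AP-1 genes could not be looked up, so these are not shares of all AP-1 transcripts. Of the summed FPKM of Fos, Jun and Junb, Jun made up 67.4% ± 0.7 in control, 56.0% ± 5.0 after OGD/R and 53.7% ± 5.1 with mimics (SD, n = 3). Junb made up 30.7% ± 0.6, 38.8% ± 3.3 and 40.6% ± 2.9 in the same order. The share of Junb was 30.1% to 31.3% in the controls and at least 35.9% in each of the other 6 libraries. Fos was 1.97% ± 0.33 in control. Its share was 3.23%, 2.57% and 9.91% after OGD/R and 7.49%, 7.23% and 2.54% with mimics, where the highest control share was 2.36%. Over replicates 1 and 2 alone the mean Fos share was 2.90% after OGD/R and 7.36% with mimics, and that of Junb was 39.1% and 41.7%. The ratio of Dusp1 to Fos was 0.95 ± 0.23 in control, 2.83 ± 0.63 after OGD/R and 3.17 ± 1.3 with mimics (SD, n = 3), and no library with OGD/R was below 2.14. Over replicates 1 and 2 it averaged 3.17 after OGD/R and 2.42 with mimics.

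Likeness of pattern was read as the Pearson correlation of log2(FPKM + 0.1) over the 9 libraries, and for each of the 8 genes the nearest was sought among the 7 with a mean of at least 1 FPKM, which leaves out Arc as a partner. Only the 8 genes have symbols here, so no other gene could be named. Arc was most like Fos (0.98), a value above that of Fos with its nearest partner among the 7, Nr4a1 (0.95). Nr4a1 was in turn most like Fos. Dusp1 was most like Junb (0.98) and Jun (0.97), and it was in turn the gene most like Jun, Junb, Egr1 and Egr2 (0.92 to 0.98). The 9 libraries fall into controls and the rest and share their scaling, so these correlations describe the patterns and were not tested.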

How the data were processed

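RNA from 9 PC12 libraries in 3 groups of 3 was analysed. The authors filtered the reads for quality, adapters and poly-N, used RSEM per their methods, and deposited FPKM values, 1 per feature and library, rounded to 2 decimals. The submitters' processing notes name Bowtie2 2.3.3.1 and Cufflinks 2.2.1, and the genome build was not given in the sources used here. A kit for library preparation is named in more than 1 way in the labels. The sample titles gave each library's group and replicate number. FPKM values are not counts, so limma 3.58.1 (R 4.3.3; lmFit, eBayes with a mean-variance trend) was run on log2(FPKM + 0.1) with all 9 libraries in a single fit (6 residual degrees of freedom), two-sided, over the 19394 features with a value above 0 in any library, with Benjamini-Hochberg adjustment across them. The authors ran their own comparisons with edgeR. The step was tested on simulated data for mimics against OGD/R only. Noise there was independent between features, so shifts shared across a library were not simulated.

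The members and lists were chosen with earlier results of these data known. By rule, all 8 members are named, together with the members most like them. The 4 lists of related genes and the marker lists (104 symbols) were not analysed here, because identifiers could not be matched to symbols. An agent that the labels give for the culture of all groups is not reported here. Alternatives were the pseudocount, filters, scaling, 2-group fits, a replicate block, the trend, and leaving libraries out. Depth is unknown from FPKM, and 0 pairs of libraries held identical values.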

Additional observations from a re-analysis of the deposited data

How the results depend on the processing

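Call counts and log2 fold changes were recomputed under 19 alternatives (18 for Arc), set with earlier results of these data known. Shares, ratios and mean levels were recomputed only without OGD/R replicate 3 and mimic replicate 3, chosen after seeing the data, and spread, correlations and promoter counts under none. The number of immediate early genes called was 6 for OGD/R against control, 5 to 7 when any 1 library was left out, and 7 with Fos called in 9 of the 19; for mimics against control it was 8, and 5 to 8; for mimics against OGD/R it was 0 each time 1 library was left out. The 5 for mimics against control came without mimic replicate 1 and without mimic replicate 2, when Fos, Nr4a1 and Arc were not called. For mimics against OGD/R the count was 4 without OGD/R replicate 3 and mimic replicate 3 together. Deviations from the group means of same-numbered libraries correlated at -0.465 to 0.219, the lowest being between OGD/R replicate 3 and mimic replicate 3. With 3 libraries per group, these values cannot show whether the replicate numbers pair the libraries. Fitting the replicate block gave 6, 0 and 7 calls for OGD/R against control, mimics against OGD/R and mimics against control. Arc was then no longer called for mimics against control. Direction turned only for mimics against OGD/R. Nr4a1 had a log2 fold change of -0.001, and of 0.016 after quantile normalization, 0.071 after upper-quartile scaling, and 0.39 with both libraries left out, when Egr1 was at 0.169 and Egr2 at 0.124. With 1 library left out, Nr4a1 ranged from -0.153 to 0.214, Egr1 from -0.32 to 0.105 and Egr2 from -0.185 to 0.057, and the positive values came without OGD/R replicate 3 or, for Nr4a1, also without mimic replicate 3. Requiring a mean of at least 1 FPKM removed Arc (mean 0.954 FPKM). For each of these changes, the cause was not tested. The counts of the other gene lists were not run, for want of symbols. Depth is unknown, so no counting error can be given for any value.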
